A study of Mus musculus with 9 samples.

Results

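Vitamin A reaches the genome as retinoic acid, and the 9 genes described here cover the steps from its uptake to its transcriptional targets. They are Stra6, Lrat, Crabp2, Dhrs3, Aldh1a3, Cyp26a1, Cyp26b1, Rarb and Tgm2. They were chosen by name for their roles, with earlier results of these data known, so counts of calls are no test of enrichment. Each gene was read by the array row that carries its symbol. The array named 22180 genes through 23521 of its 34472 rows, which are called transcript clusters, and each of the 9 genes had 1 such row. Lung organoids of 3 groups were compared, with 3 arrays in each. The CSD14 group was grown from lung cells of male BALB/c mice exposed to cigarette smoke for 12 weeks and was taken at culture day 14. The CSD5 group came from smoke-exposed mice as well and was taken at culture day 5, before the change, after day 6, from a proliferation medium to a differentiation medium with less serum (2% in place of 5%). The ND14 group was grown from naïve mice and taken at culture day 14, so CSD14 over ND14 is the comparison at an equal culture day. Mice were 8 to 12 weeks old when the model was set up, and the organoids were grown from cells of digested lung, with no sort for a cell type stated. The labels number the arrays as biological replicates but do not say whether each is a mouse or culture of its own, and the p-values reflect only how far these samples spread, which may be technical. The retinoid content of the culture media is not given in the sources used here.

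Retinol circulates bound to the carrier RBP4 and enters cells through the membrane receptor STRA6, and LRAT stores it as an ester. Dehydrogenases oxidise retinol to retinaldehyde, the reductase DHRS3 runs that step backwards, and enzymes of the ALDH1A family oxidise retinaldehyde to retinoic acid. CRABP2 carries retinoic acid to nuclear receptors (RARA, RARB and RARG, each paired with an RXR), and the CYP26 enzymes break it down. Several of these genes are themselves raised by retinoic acid in many cell types, Rarb, Dhrs3, Stra6, Cyp26a1 and Tgm2 among them. In the lung, retinoids take part in forming alveoli, and airway epithelium that lacks vitamin A takes on a squamous, keratin-rich character.

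Receptor pairs bind direct repeats of a short hexamer, and the spacing of 5 bases between the copies is the classical element of Rarb. The promoter windows of RefSeq (GRCm38.p6, 250 bases before to 50 after each start) were therefore searched on both strands for the hexamer AGGTCA or its spellings AGTTCA, with an inner base changed, GGGTCA, with the leading base changed, and GGTTCA, with both changed, repeated with 1, 2 or 5 bases between them. Windows were held for 6 of the 9 genes, 11 windows in all, and Aldh1a3, Crabp2 and Tgm2 had none. A repeat with a spacing of 5 was found in 2 of these 11 windows (18.2%), those of Rarb and Cyp26a1, against 0.0974% of all 32851 windows. No repeat with a spacing of 1 or 2 was found in the 11 windows, and 0.222% and 0.268% of all windows held one. The spacing and spellings take in the known element of Rarb, and the genes were chosen for their retinoid roles. Stra6 and Dhrs3 also hold 4 and 3 of the 11 windows, so these shares are no test of enrichment. The sequences are shown because both genes hold this repeat and their signals on the arrays differed, and the capitals mark the hexamers.
Rarb, 120 bases upstream of the start, strand of the gene, chr14:16575477-16575596 (minus): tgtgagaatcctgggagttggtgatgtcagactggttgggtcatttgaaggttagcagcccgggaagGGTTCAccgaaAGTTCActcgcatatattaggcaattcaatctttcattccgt
Cyp26a1, opposite strand of the gene, chr19:37697770-37697799 (the gene is on plus): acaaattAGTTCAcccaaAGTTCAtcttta
The repeat lies 53 to 37 bases upstream of the transcript start used in Rarb and 32 to 16 bases upstream of that used in Cyp26a1. Both genes as annotated reach further upstream, to 17082331 for Rarb on minus and to 37697738 for Cyp26a1 on plus. Each repeat therefore lies within the annotated gene and upstream of only some of its transcript starts. A match of letters is a description and not a measured binding site.

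Signals are log2 values as deposited, so a difference of 1 is a doubling. Array medians lay between 2.79 and 3.04, and values near them cannot be told from background in these files, which hold no detection call. Differences were tested with limma in 1 model of all 9 arrays, adjusted by the Benjamini-Hochberg method over all 34472 transcript clusters, and a gene is called higher or lower where the adjusted p is under 0.05. The exact test of 3 arrays against 3 cannot go below a p of 0.1. CSD5 replicate 1 stood apart from its group, with a mean Pearson correlation across transcript clusters of 0.973 with replicates 2 and 3 and of 0.991 with the arrays of ND14, so calls of the 9 genes in the comparisons with CSD5 are also given without it. Fibroblast markers averaged 2.97 to 3.15 in CSD14, 3.05 to 3.31 in CSD5 and 2.89 to 3.17 in ND14, and endothelial markers 2.74 to 2.94, 2.76 to 2.91 and 2.91 to 3.12 in the same groups, all close to the array medians, except that the fibroblast gene Dcn reached 6.63 and 4.99 in CSD5 replicates 2 and 3. Among epithelial markers, the ciliated list averaged 5.48 to 5.70 in CSD14, 3.73 to 4.18 in CSD5 and 4.23 to 4.28 in ND14, and the alveolar type 2 list averaged 6.06 to 6.15, 6.21 to 7.56 and 5.36 to 5.46. In CSD14 over ND14, limma called all 5 ciliated genes measured, 4 of 8 type 2 genes, 3 of 5 club cell genes and 2 of 6 mesothelial genes higher, beside 5.48% of all transcript clusters. The alveolar type 1 genes were split. Of 7 measured, 2 were called higher, Pdpn (2.72) and Aqp5 (0.88), and 2 lower, Hopx (-1.36) and Clic5 (-1.30). Of all transcript clusters 3.66% were called lower. Scgb1a1, the secretory protein of club cells, was higher by 1.24 (adjusted p = 0.000426) and the mesothelial gene Msln by 2.40 (adjusted p = 0.00483), whereas Sftpc of type 2 cells differed by -1.52 and was not called (adjusted p = 0.0597). The mesothelial genes ran both ways. Upk1b was also called higher (0.67), while Upk3b (-0.83), Lrrn4 (-0.35), Wt1 (0.02) and Gpm6a (0.29) were not called. In the same comparison limma called 0 of 10 fibroblast and 0 of 8 endothelial genes, of which 1 each had an unadjusted p under 0.05. The part of these cells in the signals of the 9 genes was not tested. Less RNA per cell and fewer cells of a type cannot be told apart in such bulk samples.

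In CSD14 over ND14 the 9 genes moved in opposite directions. Of the genes named above as raised by retinoic acid, Tgm2, Dhrs3 and Rarb were 12.04-fold, 5.40-fold and 3.12-fold higher in CSD14. The retinol receptor Stra6, named there as well, was 1.53-fold lower, and Cyp26a1 was not called. That naming was not complete, and the response of each gene to retinoic acid was not measured here. Genes not named there, such as Crabp2, Lrat and Cyp26b1, may be raised by retinoic acid as well. The named genes therefore do not show whether the targets of retinoic acid rose as a set. The retinoic acid carrier Crabp2 was 11.1-fold lower and the synthesis enzyme Aldh1a3 2.15-fold lower. Lrat, Cyp26a1 and Cyp26b1 were dim in every group and did not pass the test. The 6 genes called were 3 higher and 3 lower, and their CSD14 and ND14 arrays did not overlap. Of all transcript clusters, 9.15% were called in this comparison (5.48% higher and 3.66% lower), and at 1 cluster per named gene 12.4% were called. The groups did not overlap in 24.3% of all transcript clusters. The median log2 difference of the 9 genes was -0.19, beside 0 over all transcript clusters. At the thresholds of the study's methods, an unadjusted p under 0.05 with a change of over 2-fold, 5 of the 9 genes passed (Stra6, at 1.53-fold, did not), beside 4.75% of all transcript clusters.

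**Figure D1:**
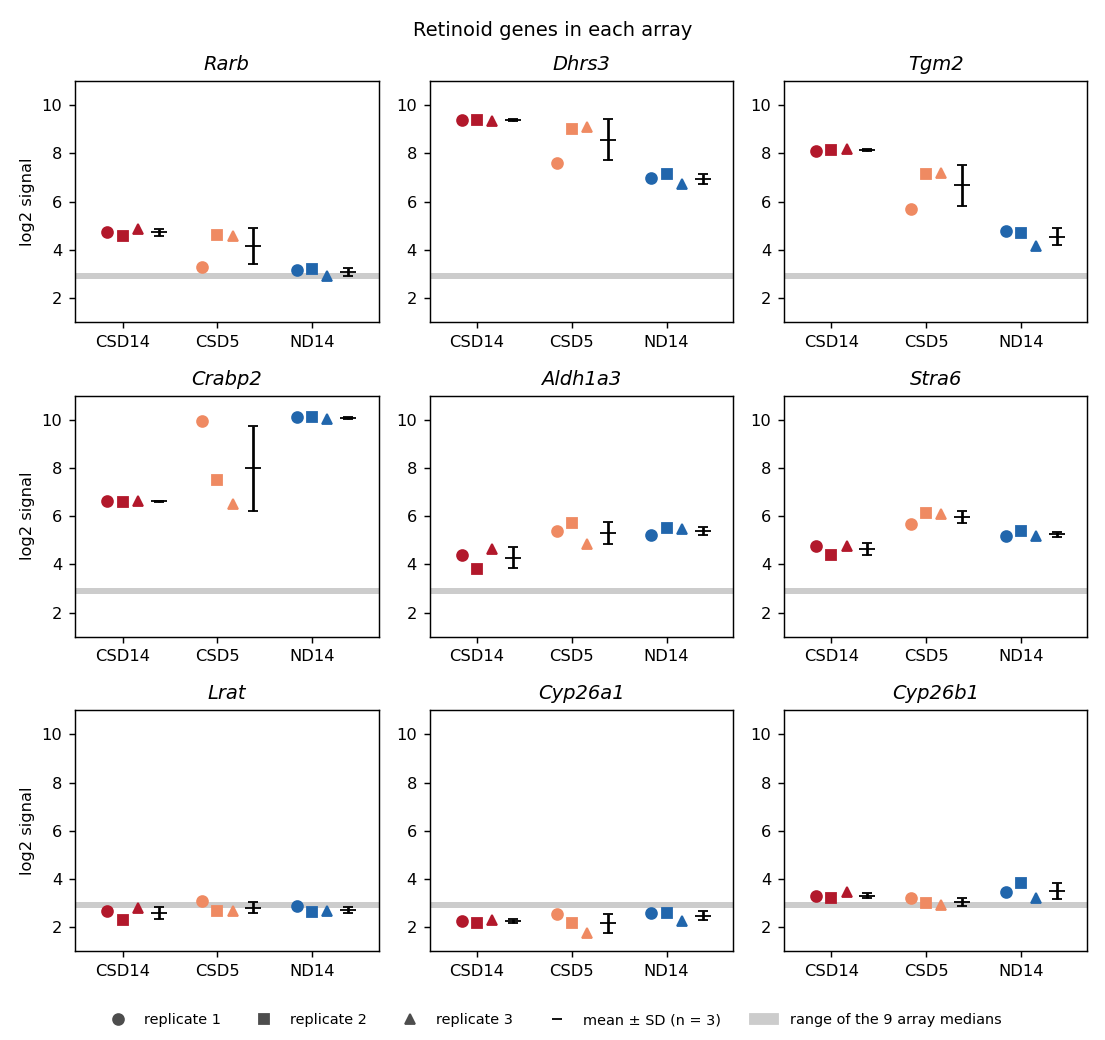
Log2 signal (y axis) of each of the 9 genes in every array, with CSD14, CSD5 and ND14 from left to right in each panel, 1 point per array, the group mean ± SD (n = 3) beside the points and a grey band over the range of the 9 array medians. Tgm2, Dhrs3 and Rarb are high in all 3 CSD14 arrays and Crabp2 is high in all 3 ND14 arrays, while CSD5 replicate 1 lies near the ND14 arrays for Rarb, Dhrs3 and Crabp2.

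Rarb encodes retinoic acid receptor beta, a receptor that is also a target of its own ligand. Its log2 signal was 4.74, 4.59 and 4.88 in CSD14, 3.30, 4.60 and 4.57 in CSD5 and 3.15, 3.22 and 2.91 in ND14. All CSD14 arrays lay above all ND14 arrays, which were near the array medians, and CSD5 was split, with replicate 1 beside ND14 and the other two beside CSD14. The log2 difference of CSD14 over ND14 was 1.64 (SE 0.30, 95% interval 0.97 to 2.32, limma adjusted p = 0.00835), and since ND14 lay near background it may understate the change.

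Dhrs3 encodes the reductase that returns retinaldehyde to retinol and so holds retinoic acid synthesis in check. It was among the brighter of the 9 genes, at 9.39, 9.40 and 9.35 in CSD14, 7.60, 9.02 and 9.09 in CSD5 and 6.96, 7.15 and 6.73 in ND14. The 3 groups did not overlap, and the CSD14 arrays were within 0.05 of each other. CSD14 exceeded ND14 by 2.43 (SE 0.33, 95% interval 1.69 to 3.18, limma adjusted p = 0.00243).

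Tgm2, tissue transglutaminase, crosslinks proteins and is a classical retinoic acid target in macrophages and other cells. Its log2 signal was 8.09, 8.15 and 8.18 in CSD14, 5.69, 7.15 and 7.19 in CSD5 and 4.80, 4.71 and 4.14 in ND14. It too kept the 3 groups apart with CSD5 in the middle, and the difference of CSD14 over ND14 was the largest rise of the 9 genes, 3.59 (SE 0.36, 95% interval 2.79 to 4.39, limma adjusted p = 0.000669). The calls of Rarb, Dhrs3, Tgm2 and Crabp2 in CSD14 over ND14 held when any of the arrays was left out.

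Crabp2 encodes the cytosolic protein that delivers retinoic acid to its nuclear receptors. It had 6.62, 6.59 and 6.62 in CSD14, 9.95, 7.50 and 6.51 in CSD5 and 10.12, 10.10 and 10.03 in ND14. CSD14 and ND14 were each tight and far apart, whereas CSD5 spanned almost the whole distance between them. CSD14 was lower than ND14 by a log2 difference of -3.47 (SE 0.66, 95% interval -4.96 to -1.99, limma adjusted p = 0.0103), with an error that takes in the wide spread of CSD5 because the model shares 1 variance over the groups.

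Aldh1a3 encodes an enzyme that makes retinoic acid from retinaldehyde. Its log2 signal was 4.41, 3.79 and 4.62 in CSD14, 5.37, 5.71 and 4.83 in CSD5 and 5.20, 5.49 and 5.45 in ND14. Every CSD14 array was below every array of the other groups, and CSD5 overlapped ND14. The log2 difference of CSD14 over ND14 was -1.11 (SE 0.25, 95% interval -1.67 to -0.54, limma adjusted p = 0.0234). The call was lost when any of 5 arrays was left out (CSD14 replicates 1 and 2 and each ND14 replicate), with adjusted p between 0.0549 and 0.0852.

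Stra6, the receptor that takes retinol from RBP4, had 4.76, 4.37 and 4.78 in CSD14, 5.66, 6.15 and 6.07 in CSD5 and 5.19, 5.38 and 5.19 in ND14. CSD5 was highest and CSD14 lowest with no overlap among the 3 groups, an order that none of the other 5 called genes had. The log2 difference of CSD14 over ND14 was -0.62 (SE 0.16, 95% interval -0.98 to -0.25, limma adjusted p = 0.0438), the smallest of the 6 differences called. It missed the threshold when any of 8 arrays was left out (all but CSD5 replicate 1), with adjusted p between 0.0506 and 0.143, and with each array centred on its median, at an adjusted p of 0.0511.

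Lrat, which stores retinol as an ester, had 2.68, 2.30 and 2.80 in CSD14, 3.07, 2.68 and 2.68 in CSD5 and 2.86, 2.64 and 2.66 in ND14. Cyp26a1, the retinoic acid hydroxylase whose promoter window holds the repeat shown above, had 2.27, 2.16 and 2.31 in CSD14, 2.56, 2.17 and 1.74 in CSD5 and 2.57, 2.60 and 2.27 in ND14. Both lay near or below the array medians. Cyp26b1, a second hydroxylase of retinoic acid, was slightly brighter at 3.29, 3.21 and 3.44 in CSD14, 3.21, 3.0 and 2.91 in CSD5 and 3.46, 3.84 and 3.21 in ND14. The log2 difference of CSD14 over ND14 was -0.13 for Lrat (95% interval -0.49 to 0.24), -0.23 for Cyp26a1 (-0.66 to 0.19) and -0.19 for Cyp26b1 (-0.56 to 0.18), with limma adjusted p of 0.786, 0.622 and 0.646. At these signals a change of the RNA could go unmeasured. Rarb and Cyp26a1, the genes whose windows hold the repeat, thus had a called rise of 1.64 and an uncalled difference of -0.23.

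**Figure D2:**
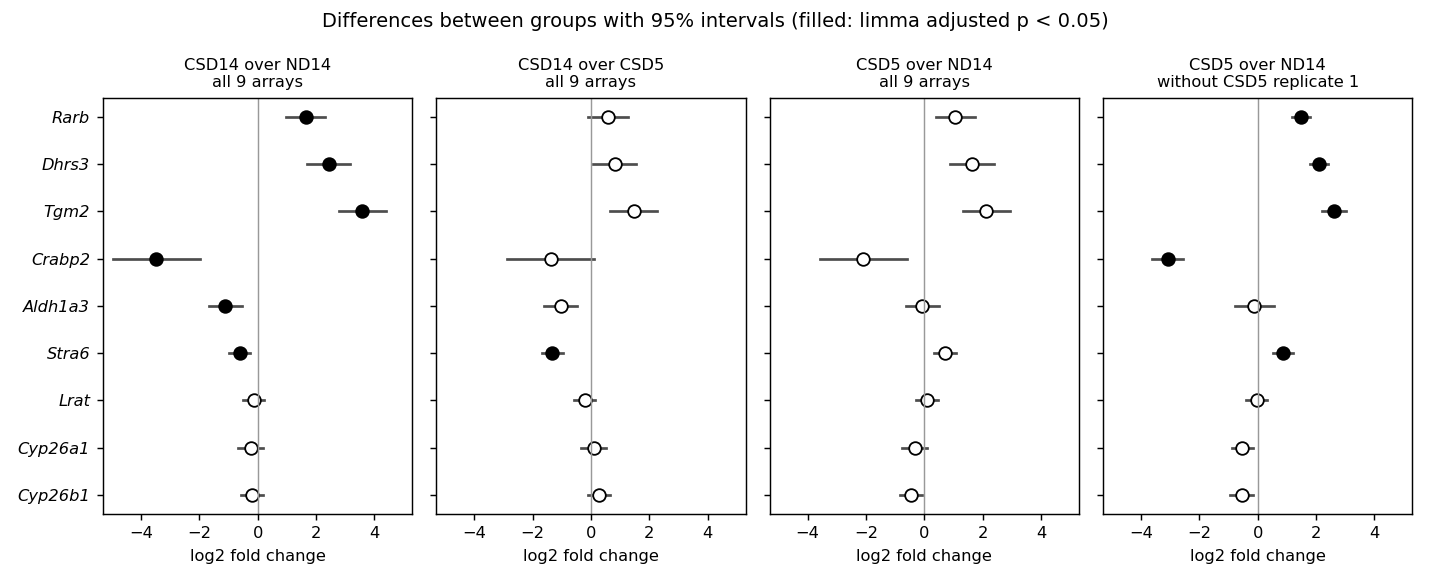
Log2 difference (x axis) with its 95% interval for each of the 9 genes (y axis) in CSD14 over ND14, CSD14 over CSD5 and CSD5 over ND14, from the limma model of all 9 arrays and, in the last panel, for CSD5 over ND14 without CSD5 replicate 1, filled where the adjusted p is under 0.05. In CSD14 over ND14 the filled points run from -3.47 for Crabp2 to 3.59 for Tgm2, and in CSD14 over CSD5 only Stra6 is filled. In CSD5 over ND14 no point is filled with all arrays and 5 are filled without replicate 1.

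CSD14 over CSD5 compares culture days in organoids of smoke-exposed mice, and the medium changes with the day. Stra6 was the only one of the 9 genes called, lower in CSD14 by a log2 difference of -1.32 (SE 0.16, 95% interval -1.69 to -0.96, limma adjusted p = 0.0047). The call held without any of the arrays (adjusted p 0.000952 to 0.0233). Of all transcript clusters 2.41% were called here, 1.91% higher and 0.496% lower, and the median of the 9 genes was 0.09, equal to that of all transcript clusters. At the methods' thresholds 3 of the 9 genes passed (Stra6, Tgm2 and Aldh1a3), beside 1.79% of all transcript clusters. The leukocyte list averaged 4.34 to 4.41 in CSD14 and 4.40 to 5.12 in CSD5, and Csf1r, the receptor that marks macrophages, had 3.08, 2.86 and 3.13 in CSD14 and 3.75, 4.71 and 4.49 in CSD5 (log2 difference -1.29, limma adjusted p = 0.0208, and -1.58 with an adjusted p of 0.000636 without CSD5 replicate 1). Of the leukocyte list 1 of 10 measured genes, Csf1r, was called lower. The others ran both ways without a call. Tyrobp (-1.44), Lyz2 (-0.86), Adgre1 (-0.74), Mrc1 (-0.55), Ptprc (-0.47) and Marco (-0.06) had negative differences, and Cd14 (0.51), Cd68 (0.34) and Itgam (0.02) positive ones. Of the alveolar type 2 list 1 of 8 was called lower. Sftpc, the surfactant protein C gene that marks type 2 cells, had 4.55, 4.25 and 3.95 in CSD14 and 9.49, 11.29 and 11.49 in CSD5 and was the gene called. The other type 2 genes ran both ways without a call, with differences of -1.29 for Sftpa1, -1.33 for Lamp3 and -1.40 for Slc34a2, and of 1.33 for Sftpd, 0.49 for Sftpb, 0.35 for Abca3 and 0.35 for Etv5. The part of leukocytes and type 2 cells in the signal of Stra6 was not tested.

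Tgm2 was higher in CSD14 than in CSD5 by 1.46 (95% interval 0.67 to 2.26, limma adjusted p = 0.0689) and Dhrs3 by 0.81 (0.06 to 1.56, adjusted p = 0.271), neither of which was called. Aldh1a3 had a difference of -1.03 (95% interval -1.60 to -0.46, limma adjusted p = 0.0716), and it was called with arrays centred on their medians (-1.11, adjusted p = 0.0399) or quantile normalized (-1.12, adjusted p = 0.0342). Without CSD5 replicate 1 it was -0.997 (adjusted p = 0.0942). The differences of Rarb (0.58, 95% interval -0.09 to 1.25) and Crabp2 (-1.38, -2.86 to 0.11) had intervals that include 0, at adjusted p of 0.390 and 0.350. Lrat (-0.22, -0.58 to 0.15), Cyp26a1 (0.09, -0.34 to 0.52) and Cyp26b1 (0.27, -0.09 to 0.64) were not called either. Without CSD5 replicate 1, Tgm2 was called as well (0.97, SE 0.18, limma adjusted p = 0.0228), while Rarb, Dhrs3 and Crabp2 had smaller differences of 0.15, 0.33 and -0.40 (adjusted p 0.558, 0.221 and 0.373).

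CSD5 over ND14 differs in exposure, culture day and medium together. None of the 9 genes was called by limma in the model of all 9 arrays, and 6 of them had an unadjusted p under 0.05. Of all transcript clusters 0.0029% were called, a count of 1, and 13.8% had an unadjusted p under 0.05. At 1 cluster per named gene the share called was 0.00451%. At the methods' thresholds 4 of the 9 genes passed, beside 1.98% of all transcript clusters. The log2 differences were 2.13 for Tgm2, 1.62 for Dhrs3, 1.06 for Rarb, 0.71 for Stra6 and -2.10 for Crabp2, with limma adjusted p between 0.151 and 0.237, and the CSD5 and ND14 arrays of these 5 genes did not overlap, as in 13.3% of all transcript clusters. Aldh1a3 (-0.08, 95% interval -0.64 to 0.49), Lrat (0.09, -0.27 to 0.45), Cyp26a1 (-0.32, -0.75 to 0.10) and Cyp26b1 (-0.46, -0.83 to -0.10) had adjusted p of 0.911, 0.827, 0.474 and 0.271.

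Without CSD5 replicate 1 the same 5 genes were called in CSD5 over ND14. Tgm2 was higher by 2.62 (limma adjusted p = 2.97e-05), Dhrs3 by 2.11 (1.76e-05), Rarb by 1.49 (0.000145) and Stra6 by 0.86 (0.00615), and Crabp2 was lower at -3.08 (4.67e-05). The share of all transcript clusters called was then 9.67%, against 0.0029% with all arrays, so the omission acted on the whole table and not on these genes alone. Replicate 1 was set aside because it resembled ND14, so leaving it out favours larger differences from ND14 and a smaller spread. These calls are therefore no independent support.

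The place of each CSD5 array between the groups of day 14 was expressed as a percentage, with 0% at the ND14 mean and 100% at the CSD14 mean. It was computed for the 6 genes called in CSD14 over ND14, shares the arrays of that comparison and is a description. CSD5 replicates 1, 2 and 3 stood at 12.6%, 91.7% and 89.9% for Rarb. The same arrays stood at 26.8%, 85.2% and 88.1% for Dhrs3, and at 31.8%, 72.4% and 73.5% for Tgm2. For Crabp2 they stood at 3.84%, 74.4% and 103%. Replicates 2 and 3 were thus most of the way to CSD14 for these 4 genes, and replicate 1 was nearer to ND14. Aldh1a3 did not follow this order, at 0.904%, -29.8% and 49.7%, and Stra6 lay on the far side of ND14 in every array, at -65.9%, -145% and -132%. Of the 28 called genes of the wider lists, the 24 that the naming rule took (up to 6 per list and comparison) were placed in the same way, and the medians of the replicates were 5.89%, 57.5% and 58.6%.

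**Figure D3:**
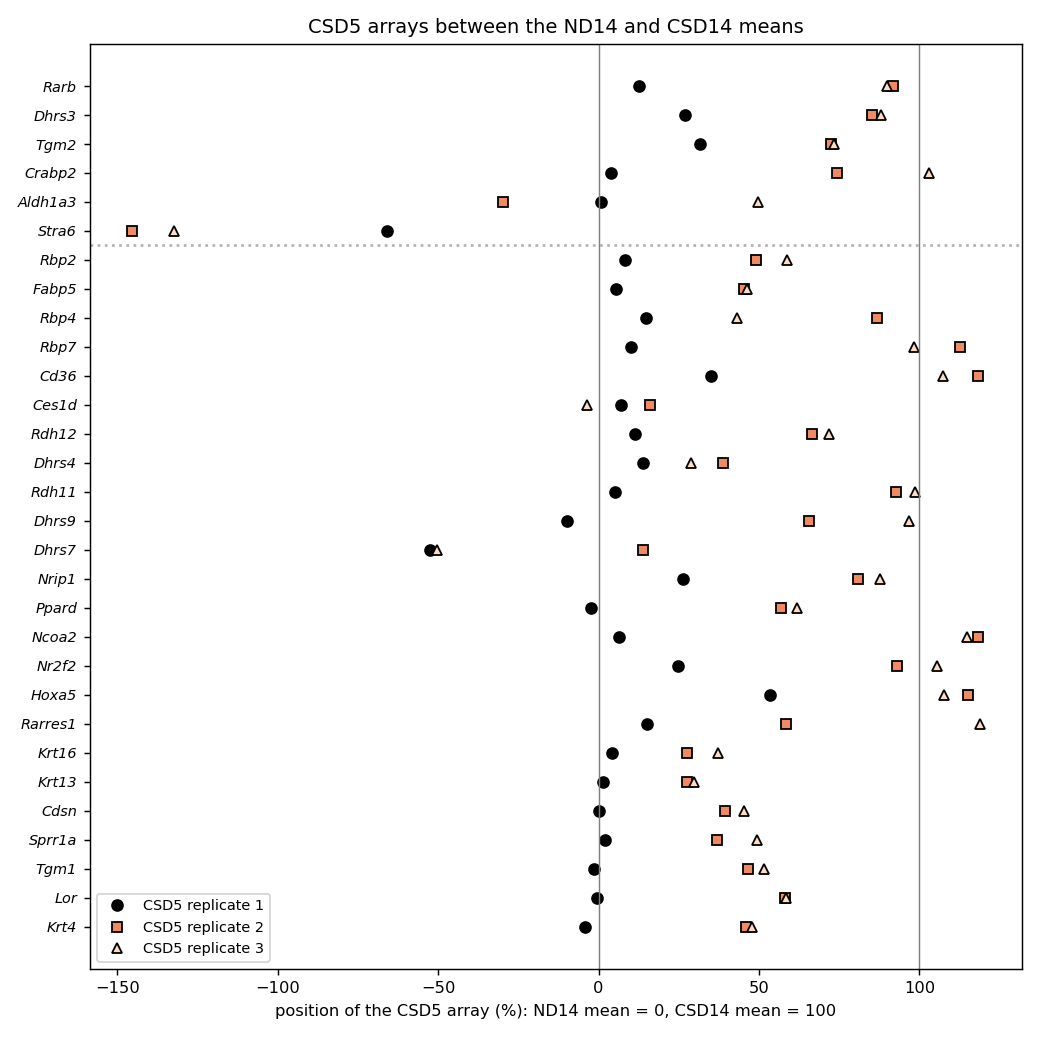
Position of each CSD5 array (x axis, percent of the distance between the ND14 mean at 0 and the CSD14 mean at 100) for genes called in CSD14 over ND14 (y axis), with the 6 retinoid genes above the dotted line and 24 of the 28 called genes of the wider lists, those the naming rule took, below it, 1 point per replicate. Replicates 2 and 3 lie at 72.4% or higher for Rarb, Dhrs3, Tgm2 and Crabp2, replicate 1 lies at 31.8% or lower for the same genes, and all replicates lie below 0 for Stra6.

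The rest of the pathway was read from 7 lists, of which 83 of 89 genes were measured. In CSD14 over ND14, 28 of them were called (12.4% of all named genes were), 8 higher and 20 lower, and the CSD14 and ND14 arrays of 42 did not overlap, as in 24.3% of all transcript clusters. Their median log2 difference was -0.03, beside 0 over all transcript clusters. Of the 20 lower genes, 11 belonged to the list of squamous genes, so the other 6 lists together held 8 higher and 9 lower genes.

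Uptake and binding proteins were mixed, with 2 of 10 higher and 3 lower and a median of -0.07, beside 12.4% of all named genes called. Rbp2, a cellular retinol-binding protein known from the intestine, had 4.38, 4.42 and 4.12 in CSD14, 7.69, 6.18 and 5.83 in CSD5 and 8.08, 7.61 and 8.30 in ND14. Its log2 difference of CSD14 over ND14 was -3.69 (limma adjusted p = 0.00101), and a second transcript cluster of Rbp2 gave -1.19. Rbp7, another retinol-binding protein, was at 2.98, 3.03 and 3.28 in CSD14, 5.83, 2.71 and 3.15 in CSD5 and 5.92, 6.38 and 6.11 in ND14 (-3.04, limma adjusted p = 0.0159). Its CSD14 values lay near the array medians, so this difference may understate the change. Rbp2 and Rbp7 thus share with Crabp2 a bright signal in ND14 and a CSD5 replicate 1 close to it. Fabp5, a fatty acid carrier that can bring retinoic acid to PPAR delta, differed by -1.88 (limma adjusted p = 0.00101), and its other transcript clusters gave -1.88, -2.93 and -4.12. Rbp4, the carrier that STRA6 binds, was higher by 1.38 (SE 0.25, limma adjusted p = 0.00788) and the fatty acid transporter Cd36 by 0.91 (adjusted p = 0.0255). The calls of Rbp7 and Cd36 were lost when any of 6 and of 5 arrays was left out.

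Among the oxidoreductases of retinol and retinaldehyde, 2 of 18 were higher and 3 lower, beside 12.4% of all named genes called. Rdh12, a retinaldehyde reductase known from the retina, had 4.42, 3.85 and 4.41 in CSD14, 7.99, 5.65 and 5.42 in CSD5 and 8.55, 8.58 and 8.30 in ND14. Its log2 difference was -4.25 (SE 0.55, limma adjusted p = 0.002), larger in size than that of any of the 9 genes and opposite to that of Dhrs3, which reduces the same substrate. Rdh11 (-1.72) and Dhrs9 (-1.58) were also lower, and Dhrs4 (0.80) and Dhrs7 (0.44) higher, with limma adjusted p of 0.0157, 0.0178, 0.00358 and 0.0435. Rdh10, the main retinol dehydrogenase of the embryo, differed by 0.13 and was not called (adjusted p = 0.723). The 2 transcript clusters of Rdh13 disagreed. The one used gave -0.23 without a call, and the other gave 0.59 (limma adjusted p = 0.0407). The calls of Rdh11, Dhrs9 and Dhrs7 were lost when any of 5, 6 and 6 arrays was left out.

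Ester storage and hydrolysis had 1 of 9 genes called, near the share of 12.4% of all named genes. It was the carboxylesterase Ces1d (0.56, limma adjusted p = 0.00872). None of the 8 other genes of retinoic acid synthesis and breakdown was called by limma, Aldh1a1 among them (0.32, unadjusted p = 0.0264, adjusted p = 0.170). Aldh1a3 was therefore the only gene of synthesis or breakdown that passed the test in the model of all 9 arrays. Without CSD5 replicate 1, Cyp2s1 (-0.70, limma adjusted p = 0.00819) and Aldh1a7 (-0.79, adjusted p = 0.00977) were called lower as well.

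Of 10 receptors and cofactors 1 was higher and 2 were lower, beside 12.4% of all named genes called. Nrip1, a corepressor that binds ligand-loaded receptors and is itself raised by retinoic acid, had 7.05, 7.11 and 7.14 in CSD14, 6.25, 6.88 and 6.96 in CSD5 and 5.95, 5.96 and 5.93 in ND14 (1.15, limma adjusted p = 0.00323). Ppard (-1.18, adjusted p = 0.0126) and the coactivator Ncoa2 (-0.88, adjusted p = 0.0407) were lower, calls that were lost when any of 4 and of 6 arrays was left out. Rara, Rarg and Rxra differed by 0.06, -0.09 and -0.39 and were not called, so Rarb was the only retinoic acid receptor gene that passed the test.

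Other genes that retinoic acid raises had 2 of 14 higher and 1 lower, with a median of 0.09, beside 12.4% of all named genes called. Nr2f2, an orphan nuclear receptor, had 7.22, 7.42 and 6.92 in CSD14, 5.90, 7.07 and 7.28 in CSD5 and 5.48, 5.47 and 5.48 in ND14 (1.71, limma adjusted p = 0.00745). The patterning gene Hoxa5 was higher by 0.68 (adjusted p = 0.0149), and Rarres1, known as a retinoid-responsive gene of human skin, was lower by -1.62 (adjusted p = 0.0149). The calls of Hoxa5 and Rarres1 were lost when any of 3 and of 4 arrays was left out. Across these lists, genes that retinoic acid raises were therefore called in both directions.

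Squamous genes, many of which retinoic acid lowers in some epithelia, had 11 of 14 lower and none higher in CSD14 over ND14. Their median was -3.02, and 12.4% of all named genes were called. The response of each gene to retinoic acid was not measured here. Cdsn, corneodesmosin of the cornified layer, differed by -7.19, and Lor, the envelope protein loricrin, by -6.89. The keratin Krt16 differed by -5.77, the transglutaminase Tgm1 by -4.02 and the keratin Krt13 by -2.90, with limma adjusted p for these 5 genes between 0.000197 and 0.00199. Tgm1 and Tgm2, enzymes of the same family, thus moved in opposite directions. The mean signal of the list was 5.65 to 5.75 in CSD14, 7.10 to 8.80 in CSD5, with the highest value in replicate 1, and 8.70 to 8.90 in ND14. The 5 measured genes of 6 basal cell markers averaged 8.42 to 8.52 in CSD14, 8.56 to 8.67 in CSD5 and 8.37 to 8.53 in ND14, a mean over members that moved in opposite directions. In CSD14 over ND14, 3 of the 5 were called, with Ngfr higher (2.06, limma adjusted p = 0.0132) and Krt14 (-1.24, adjusted p = 0.00133) and Trp63 (-0.53, adjusted p = 0.0179) lower. Whether the 9 genes follow the share of squamous cells was not tested.

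**Figure D4:**
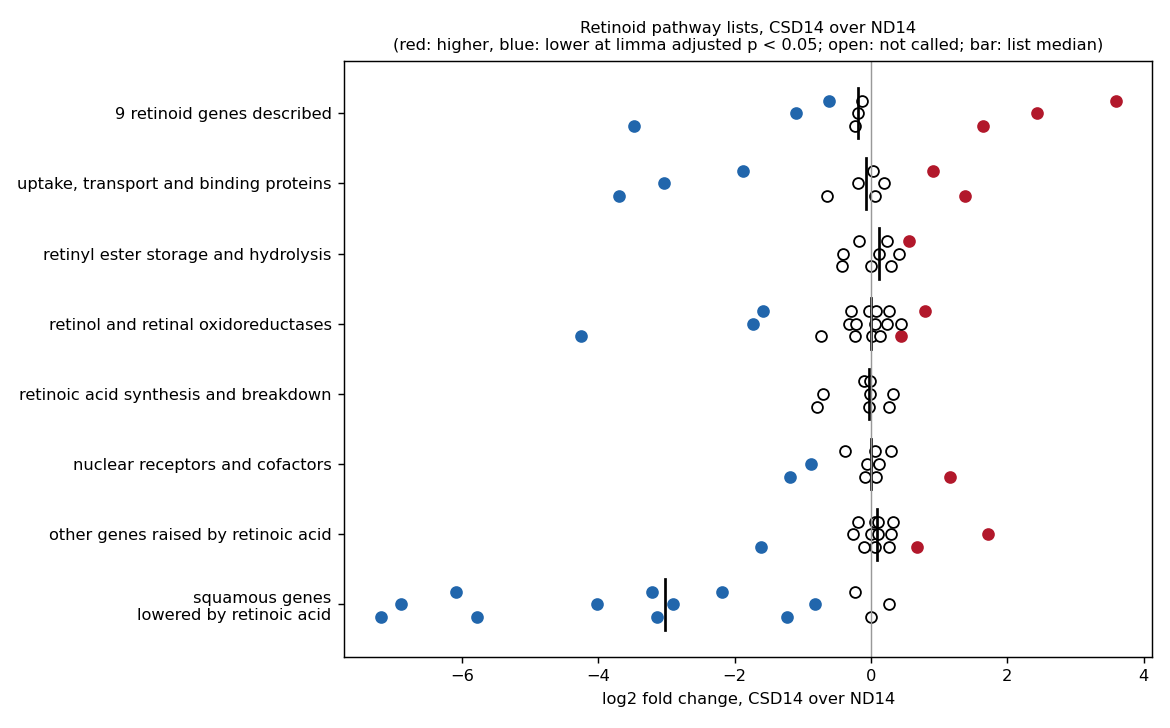
Log2 difference of CSD14 over ND14 (x axis) for the 9 genes and each measured gene of the 7 wider lists (y axis), 1 point per gene, filled red (higher) or blue (lower) where the limma adjusted p is under 0.05 and open otherwise, with a bar at the median of the list. The median of the squamous list is at -3.02 that of the 9 genes is at -0.19, and those of the other lists lie between -0.07 and 0.11.

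In CSD14 over CSD5, 12 of the 83 genes were called (3.17% of all named genes were), 3 higher and 9 lower, with a median of -0.02 beside 0.09 over all transcript clusters. The lower genes were Rbp2 (-2.26, limma adjusted p = 0.0239), Fabp5 (-1.27, adjusted p = 0.0156) and 7 squamous genes, and the higher ones were Ces1d (0.53), Dhrs4 (0.58) and Dhrs7 (0.57). The calls of Rbp2, Fabp5, Ces1d, Dhrs4 and Dhrs7 were lost when any of 4, 2, 7, 8 and 8 arrays was left out. CSD5 replicate 1 was among them for Dhrs4 (0.53 without it, limma adjusted p = 0.0613) and Dhrs7 (0.52, adjusted p = 0.0559), while Rbp2 (-1.70, adjusted p = 0.00277), Fabp5 (-1.02, adjusted p = 0.00559) and Ces1d (0.53, adjusted p = 0.0427) were called without it. Among the 7 squamous genes, the calls of Lor, Krt4 and Tgm1 were lost when any of 7, 6 and 3 arrays was left out. That of Sprr1a was lost with 1 array, and those of Krt16, Krt13 and Cdsn held. The count of 12 was 2 in a fit of only the 6 arrays compared, 4, 6 and 3 without CSD14 replicates 1, 2 and 3, 8 without CSD5 replicate 3, and 6 and 7 without ND14 replicates 1 and 3. In CSD5 over ND14 limma called 0 of the 83 genes, and 34 had an unadjusted p under 0.05, beside 13.8% of all transcript clusters. Without CSD5 replicate 1, the array of that group nearest to ND14, 28 were called, beside 9.67% of all transcript clusters.

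The named genes closest to each of the 6 called genes over the 9 arrays were found by the root mean square difference of log2 signals, each gene centred on its own mean. The closest to Rarb were Cnnm2 (0.0824), Isg15 (0.117) and Atp1b1 (0.121), and to Dhrs3 they were Tspan8 (0.0993), Lbp (0.104) and Rtp4 (0.110). Tgm2 had no gene as close, with Slc1a1 (0.266), Ffar4 (0.277) and Zbp1 (0.282) first. The closest to Crabp2 were Hsd17b2 (0.195), Tmem171 (0.198) and Dgat2 (0.215), and to Aldh1a3 they were Zfand5 (0.219), Ptpre (0.236) and Prss27 (0.237). The closest to Stra6 were Csf1r (0.169), Clec4e (0.187) and Fcer1g (0.215), 3 genes known from macrophages and other myeloid cells. Clec4e, at 1.87 to 3.33, lay near or below the array medians, and Csf1r and Fcer1g were dimmer than Stra6 in every array. Dim genes with a small range come close easily by this measure. Each member of the set thus had a different list of nearest genes, and genes with a larger range over the arrays have larger differences by this measure.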

How the data were processed

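The authors reverse transcribed and amplified 10 ng of total RNA per sample. The labelled cDNA was hybridised to Affymetrix Mouse Gene 2.0 ST arrays, and the data were processed in Transcriptome Analysis Console. Each array row is a transcript cluster, for which a log2 signal was deposited, and the summarization and normalization method is not given in the sources used here. Array medians were 2.79 to 3.04. All 9 arrays were used with no further scaling or filter. The number of arrays, the spread within CSD5 and signals near background limit the precision.

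Gene symbols came from the platform annotation, in which 23521 transcript clusters carry 1 symbol, 1820 several and 9131 none. A gene with several clusters was represented by the one with the highest mean. The 3 groups were fitted in 1 model with limma 3.58.1 (lmFit, contrasts and eBayes) in R 4.3.3. The procedure was tested on simulated data. Alternatives were the thresholds of the study's methods, omission of each array, the replicate number as a block, quantile normalization or median centring of the arrays, robust limma-trend, a fit of the 6 arrays compared, the average over a gene's clusters, and a filter that kept only clusters with a mean above the 40th percentile. Promoter sequences are from RefSeq (GRCm38.p6).

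The 9 genes and all lists were chosen with earlier results of these data known. Of the wider lists, the text names up to 6 called genes per list with the smallest adjusted p, and a few uncalled receptors and enzymes chosen after their values were seen.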

Additional observations from a re-analysis of the deposited data

How the results depend on the processing

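Of the 152 alternative values of the 9 genes in each comparison, 134 kept the direction and the call in CSD14 over ND14, 145 in CSD14 over CSD5 and 140 in CSD5 over ND14. Omitting 1 array gave 4 to 6 of the 9 genes called in CSD14 over ND14, 1 to 2 in CSD14 over CSD5 and 0 to 5 in CSD5 over ND14. For the wider lists the ranges were 16 to 31, 3 to 14 and 0 to 28, and for all transcript clusters 1763 to 4090, 223 to 1417 and 0 to 3333. The highest counts of all transcript clusters came without CSD5 replicate 1. At the methods' thresholds, 1637 transcript clusters passed in CSD14 over ND14 and 683 in CSD5 over ND14, where limma with adjustment called 3153 and 1. The 9 genes then gave 3 in CSD14 over CSD5 and 4 in CSD5 over ND14, and the wider lists 14 in CSD5 over ND14. Median centring and quantile normalization each gave 2 of the 9 genes in CSD14 over CSD5. A fit of only the 6 arrays compared gave 2 genes of the wider lists and 141 transcript clusters in CSD14 over CSD5, and 0 transcript clusters in CSD5 over ND14. The cause was not tested.

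Samples of the same number did not deviate together (correlations -0.133 to 0.065), so the numbers were not taken as pairs. With the replicate number as a block, 4 of the 9 genes were called in CSD14 over ND14 (Stra6, adjusted p = 0.0813, and Aldh1a3, adjusted p = 0.0544, were not), 505 transcript clusters in CSD14 over CSD5 and 0 in CSD5 over ND14.

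Signs turned only for uncalled differences near 0. Lrat became 0.02 in CSD14 over ND14 without CSD14 replicate 2 and -0.04 in CSD5 over ND14 without CSD5 replicate 1 (ranges -0.23 to 0.02 and -0.04 to 0.16 with 1 array omitted). Cyp26a1 became -0.00037 in CSD14 over CSD5 with quantile normalization and -0.12 without CSD5 replicate 3 (range -0.12 to 0.29). Aldh1a3 became 0.017 in CSD5 over ND14 with median centring and 0.16 without CSD5 replicate 3 (range -0.28 to 0.16). Cyp26a1 fell under the 40th percentile of the mean, so that filter gave no value for it. The dim signals of Lrat and Cyp26a1 limit what these arrays can show of them.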
